A study of Mus musculus with 23 samples.

Results

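The effect of *Bhlhe40* deletion on transcript levels was compared between hippocampus and cerebellum. For each gene, the difference KO minus WT in hippocampus was set against the difference KO minus WT in cerebellum, and the result is called the interaction here. A positive interaction means that KO minus WT was higher in hippocampus than in cerebellum, and a negative interaction that it was higher in cerebellum. Of the 23 arrays of the study, the 15 of these tissues were used: 4 WT and 4 *Bhlhe40* KO arrays of hippocampus, and 3 WT and 4 *Bhlhe40* KO arrays of cerebellum. All came from 8 male mice aged 3 to 5 months that had been fasted overnight, 4 WT on the C57BL/6 strain and 4 *Bhlhe40* KO that had been backcrossed to it, and 7 of the mice gave both tissues. The labels tie the deletion to no Cre line or cell type. RNA of each tissue was hybridized to an Illumina mouse BeadChip, which measures the brightness of beads that each carry a probe for a transcript. Genes with a signal above the negative control beads in 3 or more arrays of both tissues were tested, which left 9113 of the 16593 genes with a symbol on the chip. A WT cerebellum sample that the study removed was not used here.

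*Bhlhe40* encodes a basic helix-loop-helix transcriptional repressor that binds E-box sequences, chiefly CACGTG, and that takes part in the feedback of the circadian clock. It is made in neurons of the hippocampus and in other brain regions. The hippocampus is built around glutamatergic pyramidal and granule neurons with scattered interneurons. The cerebellum is dominated by its own very small granule neurons, which drive the Purkinje cells, so the same bulk measurement samples very different cell mixtures in the tissues compared.

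The arrays carried the marker genes of the tissues they were labelled with. The summed linear level of 13 hippocampal markers was 40610 to 45520 in WT hippocampus and 14940 to 15480 in WT cerebellum. That of 15 cerebellar granule cell markers was 26660 to 28800 in WT hippocampus and 132200 to 158500 in WT cerebellum. Each array detected 50.9% to 55.5% of its probes. Levels below are normalized log2 signals, and the signals had not been background-subtracted, so that differences of dim genes are understated.

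*Bhlhe40* itself was strongly lower in KO in both tissues. Its level was 11.99, 12.03, 11.94 and 11.93 in the 4 WT hippocampi and 8.26, 7.99, 8.16 and 8.53 in the 4 KO hippocampi. In cerebellum it was 11.76, 12.04 and 11.96 in WT and 8.56, 8.55, 8.46 and 8.45 in KO. No KO array reached a WT array in either tissue. Over all genes tested, the groups did not overlap for 17.4% in hippocampus and 40.9% in cerebellum. KO minus WT, a log2 difference, was -3.74 ± 0.10 (standard error, n = 4 and 4) in hippocampus and -3.42 ± 0.11 (n = 4 and 3) in cerebellum, and the interaction of -0.32 did not pass (adjusted p = 0.209).

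The knockout effect differed between hippocampus and cerebellum for a small share of genes, and where it differed the cerebellar change was nearly always the larger. At an adjusted p under 0.05 from limma, 259 of 9113 genes (2.84%) had an interaction, 105 higher (1.15%) and 154 lower (1.69%), and 1749 had an unadjusted p under 0.05. The median size of these interactions was 0.56 on the log2 scale, the smallest was 0.34, and 25 of the higher and 95 of the lower were over 1.5-fold. The cerebellar difference exceeded the hippocampal in size for 247 of the 259 genes and was smaller for 12. For 200 of them KO minus WT passed in cerebellum only, for 47 in both tissues in 1 direction with the larger difference in cerebellum, for 9 in hippocampus only, for 2 in both tissues in opposite directions, and for 1, *Tuft1* (named after its values had been seen), in neither. The differences of the tissues had the same sign in 192 of the 259 genes and opposite signs in 67. Within each tissue, KO minus WT passed for 652 higher (7.15%) and 384 lower (4.21%) genes in hippocampus, and for 1912 higher (21%) and 1685 lower (18.5%) in cerebellum. The plot of the hippocampal against the cerebellar difference shows the genes with an interaction above and below the line of equal change.

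**Figure D1:**
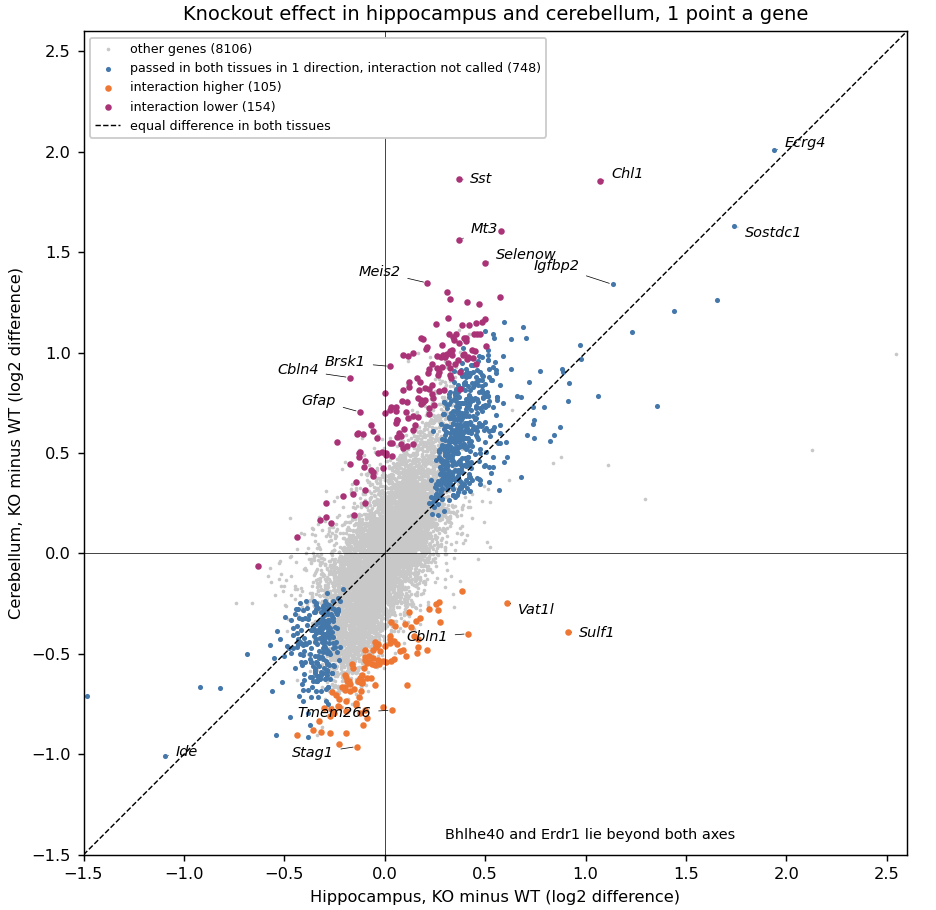
KO minus WT on the log2 scale in hippocampus (x axis) and in cerebellum (y axis), with 1 point for each of 9113 genes, and the dashed line at equal differences. The 154 genes with a lower interaction lie above the line, most with a cerebellar rise, and the 105 with a higher interaction lie below it, while the 748 genes that passed in both tissues in 1 direction with no called interaction lie along or near it. *Bhlhe40* and *Erdr1* lie beyond both axes.

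The number of genes called depended strongly on single mice. Without KO mouse 1 only 23 genes passed, without WT mouse 3 35, without KO mouse 4 147, without WT mouse 2 (which gave hippocampus only) 152 and without WT mouse 4 177, of which 42 were higher. Single arrays also moved a count by over 1.5 times: 55 genes passed without WT cerebellum replicate 2, 94 without WT hippocampus replicate 1, 96 without KO hippocampus replicate 1, 112 without KO cerebellum replicate 1, 152 without WT hippocampus replicate 2, and 553 without WT cerebellum replicate 1, while those higher fell to 54 without KO cerebellum replicate 4 and 48 without WT cerebellum replicate 3. When the difference between tissues was taken within each of the 7 mice with both, 61 genes passed, 59 of them among the 259. All of the 259 that were measured under a setting kept their direction there, in each of the 37 alternative settings. Some of these could not change it: those that altered only the variance or the threshold, and the deposited scores, which nearly equal the values used. The study's threshold, an FDR under 0.3, also keeps every call by definition. The other settings reused most or all of the arrays on which the 259 had been called, so a kept direction is no independent evidence. Leaving out WT mouse 2 and leaving out WT hippocampus replicate 2 are the same fit. In all of these settings in which they were measured, *Tmem266*, *Mindy1*, *Mt3*, *Selenow*, *Brsk1*, *Cox6c*, *Gfap* and *Chl1* passed.

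The E-box CACGTG was looked for in the promoters of these genes, in RefSeq windows from 250 bases before to 50 bases after the start of transcription (build GRCm38.p6). The motif is its own reverse complement, so that a single search covers both strands. It was present, in any window of the gene, for 11.8% of the 7449 tested genes with a window, for 9 of 76 genes with a higher interaction (11.8%) and for 9 of 130 with a lower interaction (6.92%). For genes that passed in both tissues it was 51 of 472 higher (10.8%) and 27 of 193 lower (14%). Counted by window instead of by gene, it was in 7.15% of all 32851 windows. Among the 24 genes with the largest interactions, 18 had a window and 3 of these held the motif, *Calr*, *Mtss2* and *Frmd6*. Their windows are shown with that of *Per1*, a clock gene that rose in both tissues, 5′ to 3′ on the strand of the gene, with the E-box in capitals.
Calr, chr8:84846882-84847181, minus strand: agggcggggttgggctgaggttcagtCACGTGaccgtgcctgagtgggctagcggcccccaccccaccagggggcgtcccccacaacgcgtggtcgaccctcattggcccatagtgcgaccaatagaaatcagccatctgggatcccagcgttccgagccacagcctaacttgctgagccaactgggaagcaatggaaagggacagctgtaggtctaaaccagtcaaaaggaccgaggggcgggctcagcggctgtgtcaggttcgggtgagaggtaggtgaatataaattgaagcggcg
Mtss2, chr8:110721226-110721525, plus strand: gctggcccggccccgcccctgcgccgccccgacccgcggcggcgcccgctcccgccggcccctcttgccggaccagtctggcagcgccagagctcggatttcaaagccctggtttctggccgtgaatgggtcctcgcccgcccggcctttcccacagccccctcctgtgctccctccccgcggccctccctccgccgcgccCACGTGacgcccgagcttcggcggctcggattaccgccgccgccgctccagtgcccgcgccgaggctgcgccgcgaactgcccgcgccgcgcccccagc
Frmd6, chr12:70825264-70825563, plus strand: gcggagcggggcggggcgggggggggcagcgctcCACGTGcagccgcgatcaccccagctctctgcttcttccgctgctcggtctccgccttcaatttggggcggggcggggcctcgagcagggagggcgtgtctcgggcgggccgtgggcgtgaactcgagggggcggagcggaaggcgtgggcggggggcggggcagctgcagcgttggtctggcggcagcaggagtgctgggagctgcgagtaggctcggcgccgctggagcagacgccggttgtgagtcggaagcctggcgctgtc
Per1, chr11:69098699-69098998, plus strand: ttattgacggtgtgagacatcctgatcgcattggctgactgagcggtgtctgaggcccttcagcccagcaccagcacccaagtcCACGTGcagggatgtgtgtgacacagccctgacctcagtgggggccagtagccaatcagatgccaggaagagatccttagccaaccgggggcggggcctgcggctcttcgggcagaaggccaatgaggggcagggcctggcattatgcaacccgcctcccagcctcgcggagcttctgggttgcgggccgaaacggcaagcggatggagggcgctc
The E-box began 224 bases before the start site in *Calr*, 49 in *Mtss2*, 216 in *Frmd6* and 166 in *Per1*. Of these genes, *Frmd6* fell in KO cerebellum and the other 3 rose there.

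All 12 genes with the largest negative interactions rose in KO cerebellum, and 3 of them, *Mt3*, *Selenow* and *Tmsb10*, also rose in KO hippocampus. *Sst* encodes somatostatin, the peptide of a major class of interneurons. Its level was 8.33, 8.68 and 9.36 in WT cerebellum and 11.05, 10.45, 9.57 and 11.53 in KO cerebellum, against 13.20, 12.91, 13.11 and 13.03 in WT and 13.31, 13.37, 13.58 and 13.47 in KO hippocampus. All 4 KO cerebella lay above the 3 WT cerebella, with a wide spread among them, and the hippocampal groups were close but did not overlap. KO minus WT was 1.86 in cerebellum (adjusted p = 1.41e-05) and 0.37 in hippocampus (adjusted p = 0.343), with an interaction of -1.49 (standard error 0.36, adjusted p = 0.0261). This call held in 26 of 37 alternative settings. *Meis2*, which encodes a homeodomain factor of forebrain and midbrain development, behaved alike, with 8.81, 8.75 and 9.06 in WT and 10.40, 10.06, 9.68 and 10.73 in KO cerebellum and an interaction of -1.14 (adjusted p = 0.00754). Its hippocampal groups overlapped, at 10.71, 10.68, 10.44 and 10.68 in WT and 10.85, 10.58, 10.88 and 11.04 in KO. For both genes KO replicate 3 was the lowest KO cerebellum and KO replicate 4 the highest. Some markers of other brain regions also rose in KO cerebellum, where 21% of all genes were higher and 18.5% lower. The mean level of 7 thalamic markers was 9.60 to 9.68 in the WT and 9.80 to 10.15 in the KO cerebella, without overlap, with 4 of the 7 higher (*Cbln4* among them) and 0 lower, although their linear sum, which the brightest genes dominate, was 25220 to 28130 in WT and 22800 to 26270 in KO. That of 8 striatal neuron genes was 9.34 to 9.57 and 9.52 to 9.86, with overlap and with 4 higher and 0 lower. Both means were lowest in KO replicate 3 and highest in KO replicate 4 among the KO cerebella, the order of *Sst* and *Meis2*, and the part of such tissue in these results was not tested. The mean level of the 13 hippocampal markers was 9.07 to 9.12 in WT and 8.96 to 9.19 in KO cerebellum, with 0 higher and 2 lower. Of 13 cortical layer factors 4 were higher and 2 lower there. *Cbln4* had itself been picked for its large interaction. Fewer cells of a type and less RNA per cell cannot be told apart in these bulk samples.

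Interactions of the same direction were found for 4 other secreted or membrane proteins. *Cbln4*, a secreted synapse organizer, had an interaction of -1.05 (adjusted p = 0.0127), from a difference of 0.88 in cerebellum and -0.18 in hippocampus. *Resp18*, a protein of endocrine secretory granules, had one of -0.95 (adjusted p = 0.0235), with 1.27 in cerebellum. *Dlk1*, a Notch-like membrane protein, was detected on 0 of the 3 WT and on all 4 KO cerebellum arrays, with levels of 7.39, 7.59 and 7.34 and 8.77, 8.0002, 8.96 and 9.23. It thus passed the detection filter in cerebellum through the KO arrays, and its place among the largest interactions is no independent evidence. In all, 5 of the 259 genes were undetected on every array of at least 1 group, *Dlk1* and *Cntn4* among those named. *Npy*, the peptide neuropeptide Y, rose in both tissues, by 0.96 in cerebellum and 0.36 in hippocampus, with an interaction of -0.60 (adjusted p = 0.0319). Of the 13 interneuron and neuropeptide genes tested, *Sst* and *Npy* were the 2 with an interaction, both lower, against 1.69% of all genes. The median interaction of the list was 0.10.

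*Mt3*, the metallothionein of neurons and astrocytes, had a level of 11.75, 11.37 and 11.55 in WT cerebellum and 13.02, 13.01, 13.17 and 13.27 in KO cerebellum. In hippocampus it was 11.91, 11.76, 11.93 and 11.57 in WT and 12.08, 11.99, 12.49 and 12.10 in KO. The KO arrays lay above every WT array in both tissues, by a far wider gap in cerebellum. The differences were 1.56 in cerebellum and 0.37 in hippocampus, and the interaction of -1.19 (standard error 0.15, adjusted p = 0.000534) passed in every setting. *Selenow* encodes selenoprotein W, a small redox protein. Its level rose from 11.90, 11.41 and 11.72 to 13.13, 13.05, 13.20 and 13.12 in cerebellum, and from 12.41, 12.41, 12.36 and 12.08 to 12.60, 12.91, 13.03 and 12.71 in hippocampus. The groups did not overlap in either tissue, and the interaction was -0.95 (adjusted p = 0.00257). These were the only 2 of the 14 metallothioneins and selenoproteins tested with an interaction, and 6 of the 14 rose in both tissues, against 2.84% and 6.09% of all genes. *Tmsb10*, thymosin beta 10, an actin-binding peptide, had an interaction of -1.02 (adjusted p = 0.00966), and the other probes of the gene, at -0.76 and -0.83, also passed.

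*Brsk1*, a kinase of neuronal polarity, *Mtss2*, a membrane-bending scaffold, *Calr*, the chaperone calreticulin, and *Cox6c*, a subunit of cytochrome c oxidase, completed the 12 largest negative interactions. *Brsk1* was 8.06, 7.75 and 7.91 in WT and 8.89, 8.81, 8.87 and 8.81 in KO cerebellum, and 8.69, 8.68, 8.32 and 8.25 in WT and 8.42, 8.77, 8.39 and 8.46 in KO hippocampus. The cerebellar groups were far apart and the hippocampal groups overlapped, for an interaction of -0.91 (adjusted p = 0.00324). *Mtss2* had an interaction of -0.89 (adjusted p = 0.0127) and *Calr* one of -0.89 (adjusted p = 0.0156), both with hippocampal groups that overlapped.

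**Figure D2:**
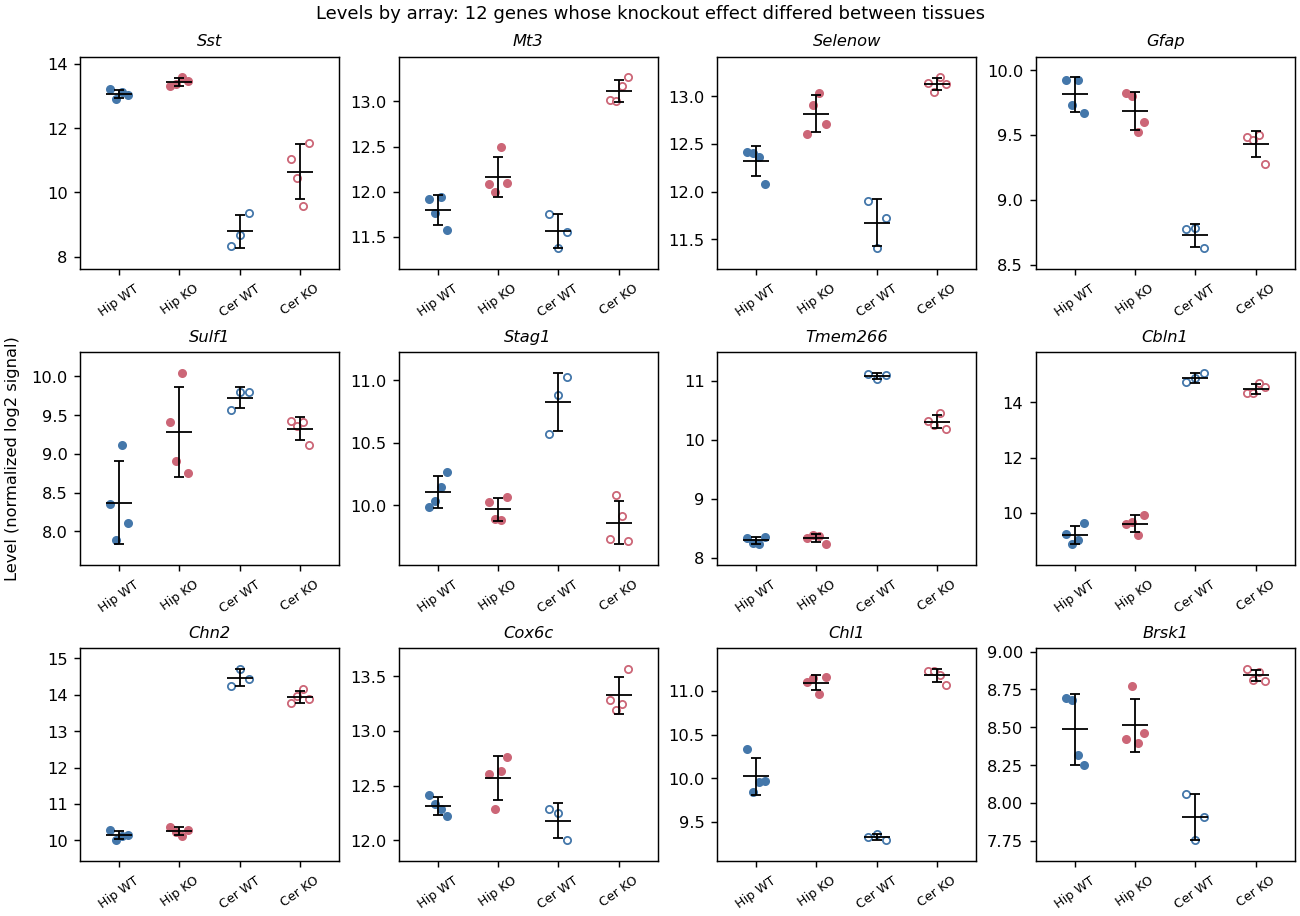
Levels (normalized log2 signal) of 12 genes with a called interaction, with 1 point for each array of WT and KO hippocampus (Hip, filled) and cerebellum (Cer, open), and bars at the mean with its SD. In *Mt3*, *Selenow*, *Cox6c*, *Chl1*, *Brsk1*, *Sst* and *Gfap* the KO cerebella lie above the WT cerebella, and in *Stag1*, *Tmem266*, *Cbln1* and *Chn2* below them, while in *Sulf1* the KO hippocampi are higher on average, with overlap.

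Most of the genes with the largest positive interactions fell in KO cerebellum, while *Sulf1* and *Vat1l* passed with a rise in KO hippocampus. The mean of *Cbln1*, described below, was also higher in KO hippocampus, though that difference did not pass. *Tmem266*, a voltage-sensing membrane protein of cerebellar granule cells, had levels of 11.12, 11.03 and 11.10 in WT and 10.32, 10.26, 10.45 and 10.19 in KO cerebellum. In hippocampus it was 8.34, 8.25, 8.22 and 8.35 in WT and 8.33, 8.38, 8.37 and 8.23 in KO. It fell in every KO cerebellum, and its interaction was 0.81 (standard error 0.12, adjusted p = 0.00257). *Stag1*, a subunit of the cohesin complex that holds sister chromatids and chromatin loops, was well expressed in both tissues, at 10.57, 10.88 and 11.02 in WT and 9.73, 10.08, 9.92 and 9.72 in KO cerebellum and at 9.98, 10.03, 10.15 and 10.27 in WT and 10.03, 9.89, 9.88 and 10.07 in KO hippocampus. The cerebellar groups did not overlap and the hippocampal groups did, and the interaction was 0.82 (adjusted p = 0.00503). *Frmd6*, a FERM-domain protein of the Hippo pathway, had an interaction of 0.76 (adjusted p = 0.00763). *Tmem30a*, a subunit of phospholipid flippases, had one of 0.72 (adjusted p = 0.00966). *Gdpd5*, a phosphodiesterase of glycerophospholipids, had one of 0.69 (adjusted p = 0.00793). All 3 fell in cerebellum, with differences of -0.77 for *Frmd6*, -0.95 for *Tmem30a* and -0.48 for *Gdpd5*.

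For 3 of the 12 genes with the largest positive interactions another probe of the gene did not pass, and the call of a further gene was lost in many settings. *Mindy1*, a deubiquitinase, had an interaction of 0.70 (adjusted p = 0.00274), and its other probe, at 0.26, did not pass. *Shf*, an adaptor protein, had one of 0.77 (adjusted p = 0.017) with its other probes at 0.12 and 0.24, which did not pass. *Aqr*, a spliceosomal helicase, had one of 0.74 (adjusted p = 0.0217) with its other probe at -0.01. *Spry3*, an inhibitor of growth factor signalling, had one of 0.73 (adjusted p = 0.0328) that held in 22 of 37 alternative settings.

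Many markers of cerebellar granule cells fell in KO cerebellum. Of the 15 tested, 8 were lower and 2 higher in KO cerebellum, against 18.5% and 21% of all genes, none passed in hippocampus, and 6 had a higher and 1 a lower interaction, against 1.15% and 1.69%. The median of the list was -0.40 in cerebellum and 0.03 in hippocampus. *Cbln1*, the secreted protein that ties granule cell axons to Purkinje cell dendrites, had levels of 14.72, 14.86 and 15.06 in WT and 14.33, 14.33, 14.69 and 14.55 in KO cerebellum. It was 9.24, 8.89, 9.01 and 9.64 in WT and 9.61, 9.69, 9.20 and 9.93 in KO hippocampus. The cerebellar groups did not overlap and the hippocampal groups did. Its KO mean was lower in cerebellum and higher in hippocampus, and both parts entered the interaction. The interaction was 0.81 (limma, adjusted p = 0.0306), a call that held in 19 of 37 alternative settings. *Chn2*, a Rac GTPase-activating protein, had an interaction of 0.62 (adjusted p = 0.0208), with 14.25, 14.71 and 14.42 in WT and 13.78, 13.95, 14.17 and 13.88 in KO cerebellum. *Gabrd*, the delta subunit of extrasynaptic GABA-A receptors, had one of 0.45 (adjusted p = 0.0493), and its other probe, at 0.24, did not pass. *Rims3*, a protein of the presynaptic active zone, had one of 0.46 (adjusted p = 0.0491). The calls of *Gabrd* and of *Rims3* each held in 11 of 37 alternative settings. The homeodomain gene *En2* (0.51) and the Rac activator *Tiam1* (0.46) were the others, named after their values had been seen, and the call of *Tiam1* held in 17 of 37.

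*Slc17a7*, the vesicular glutamate transporter VGLUT1, had the 1 lower interaction in the granule cell list, in which 4 of 15 genes lay above 0 in cerebellum and 5 had an interaction below 0. It was 11.65, 11.24 and 11.68 in WT and 12.41, 12.40, 12.62 and 12.34 in KO cerebellum, where no KO array reached a WT array, and its interaction was -0.70 (adjusted p = 0.0217). The count of 6 higher interactions in the list was 4 after quantile normalization and 2 after neqc, and the median in cerebellum was -0.19 and -0.28. Among the 12 Purkinje cell markers tested, 7 were lower and 1 higher in KO cerebellum, where 18.5% and 21% of all genes were, and the median interaction was 0.27. None of the Purkinje cell markers had an adjusted p under 0.05 from limma for the interaction or for hippocampus (5 and 2 at an unadjusted p under 0.05), and none did after quantile normalization or neqc, where 5 and 4 were lower in KO cerebellum. The linear sums over the granule cell markers were 110300 to 126100 in KO and 132200 to 158500 in WT cerebellum, without overlap, and those over the Purkinje cell markers were 74630 to 90550 and 86270 to 97270. The mean levels of the Purkinje cell markers did not overlap, at 11.62 to 11.75 in KO and 11.85 to 11.93 in WT cerebellum.

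**Figure D3:**
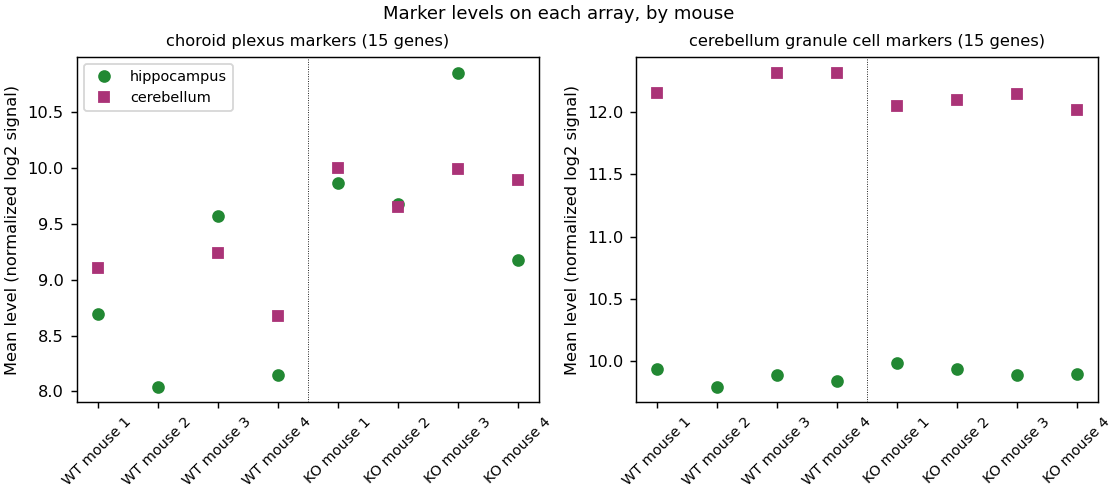
Mean level (normalized log2 signal) of 15 choroid plexus markers (left) and 15 cerebellar granule cell markers (right) on each array, by mouse, with circles for hippocampus and squares for cerebellum. Choroid plexus markers vary over the WT hippocampi from 8.04 to 9.57 and are higher in the KO cerebella (9.65 to 10.00) than in the WT cerebella (8.67 to 9.24), and the granule cell markers are lower in the KO cerebella (12.02 to 12.15) than in the WT cerebella (12.16 to 12.32).

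Only 9 genes passed in hippocampus, did not pass in cerebellum and had an interaction, of 239 that passed in hippocampus alone. *Sulf1*, an extracellular sulfatase that trims heparan sulfate, had the largest positive interaction, 1.3 (standard error 0.31, adjusted p = 0.0256). It was 8.36, 7.89, 9.12 and 8.11 in WT and 9.41, 8.91, 10.04 and 8.76 in KO hippocampus, and 9.57, 9.80 and 9.80 in WT and 9.42, 9.36, 9.40 and 9.11 in KO cerebellum. The hippocampal groups overlapped, and WT replicate 3 and KO replicate 3 were the highest arrays of their groups, as they were for the mean of the choroid plexus markers. *Vat1l*, of the quinone oxidoreductase family, had an interaction of 0.85 (adjusted p = 0.0296) with the same array highest in each hippocampal group. With the mean choroid plexus marker level as a covariate, the interaction of *Sulf1* was 1.02 (adjusted p = 0.00172) and that of *Vat1l* 0.68 (adjusted p = 0.00796). In that fit 4 genes passed as higher in hippocampus, where 652 had without it, and the same 4 were also higher in cerebellum. A passed interaction there does not show that a hippocampal rise withstood the covariate. *Camk1d*, a calcium/calmodulin-dependent kinase, fell in KO hippocampus, from 9.58, 9.53, 9.25 and 9.32 to 8.95, 9.14, 8.95 and 8.90. In cerebellum it was 8.08, 8.19 and 8.44 in WT and 8.30, 8.38, 8.34 and 8.27 in KO, and these groups overlapped. Its interaction was -0.52 (limma, adjusted p = 0.0475), which held in 11 of 37 alternative settings. *Camk1d* was the 1 member with an interaction among 12 calmodulin-dependent kinase genes tested, against 2.84% of all genes. The remaining 6, named after their values had been seen, had interactions between -0.57 and 0.57. *Rapgef5*, a Rap guanine nucleotide exchange factor, fell by 0.63 in hippocampus (adjusted p = 0.00226), and *Mdga2*, *Pa2g4*, *Tnfrsf21* and *Ch25h* fell by 0.27 to 0.32, while *Ephx1*, an epoxide hydrolase, rose by 0.38. Of 37 alternative settings the interaction held in 26 for *Sulf1*, 25 for *Vat1l*, 12 for *Rapgef5*, 11 for *Ephx1*, 8 for *Tnfrsf21* and 20 and 23 for *Mdga2* and *Pa2g4*, and in 28 of 36 for *Ch25h*.

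*Ninl* and *Atp2a3* were the 2 genes (0.0219%) that passed in both tissues in opposite directions, named after their values had been seen. *Atp2a3*, the calcium pump SERCA3, which Purkinje cells express strongly, was 12.69, 12.68 and 12.85 in WT and 12.33, 12.40, 12.64 and 12.47 in KO cerebellum, and 8.64, 8.81, 8.84 and 8.68 in WT and 9.09, 9.03, 9.03 and 8.89 in KO hippocampus. The KO arrays were all lower in cerebellum and all higher in hippocampus, for differences of -0.28 and 0.27 and an interaction of 0.55 (adjusted p = 0.017). *Ninl*, a centrosomal protein, had differences of -0.25 and 0.25.

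Many genes of oxidative phosphorylation and of ribosomes rose in both tissues, and their median rise was larger in cerebellum. The 32 subunits of mitochondrial complex I, the entry point of electrons into the respiratory chain, had a median difference of 0.34 in hippocampus and 0.73 in cerebellum, with 18 higher in hippocampus, 29 in cerebellum and 18 in both, where 6.09% of all genes were higher in both. Of these subunits 5 had a lower interaction and none a higher, against 1.69% and 1.15% of all genes, and the interaction was below 0 in 30 of the 32. *Ndufa1* was 12.15, 11.96 and 12.24 in WT and 13.28, 13.14, 13.27 and 13.30 in KO cerebellum, and 11.96, 11.76, 11.98 and 11.90 in WT and 12.22, 12.01, 12.70 and 12.35 in KO hippocampus. It rose in both tissues without overlap, with an interaction of -0.71 (adjusted p = 0.017). *Ndufb3* (-0.69) and *Ndufa12* (-0.65), accessory subunits of the complex, had interactions nearly as large. *Ndufc1* and *Ndufv2* rose in both tissues, by 0.47 and 0.37 in hippocampus and by 0.90 and 0.60 in cerebellum, and neither passed the interaction with the probe tested, while another probe of *Ndufc1* did, at -0.73 (adjusted p = 0.00966).

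The 37 subunits of complexes II to IV and of ATP synthase followed, with medians of 0.27 and 0.59. In both tissues 11 were higher, and 2 had a lower interaction, against 6.09% and 1.69% of all genes. *Cox6c* was 12.29, 12.25 and 12.0003 in WT and 13.29, 13.19, 13.25 and 13.57 in KO cerebellum, where it rose by 1.14, and 12.42, 12.33, 12.29 and 12.22 in WT and 12.61, 12.28, 12.63 and 12.76 in KO hippocampus, where the groups overlapped. Its interaction was -0.89 (adjusted p = 0.00257), and that of *Uqcr11*, a small subunit of complex III, was -0.68 (adjusted p = 0.0253). *Cox7a2*, another subunit of complex IV, rose in both tissues, by 0.51 and 0.96.

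Of 54 cytosolic ribosomal proteins, 15 were higher in both tissues and 7 had a lower interaction, against 6.09% and 1.69% of all genes. Their medians were 0.26 in hippocampus and 0.69 in cerebellum. *Rps27l* (-0.70), *Rps26* (-0.68) and *Rps27* (-0.68) had the largest of these interactions, and the call of *Rps27* held in 11 of 37 alternative settings. *Rpl36a* rose by 0.54 in hippocampus and 1.07 in cerebellum, and *Rpl13a* by 0.42 and 0.64. Ribosomal protein genes have many processed pseudogenes, and a probe may not tell them apart. Of 70 mitochondrial ribosomal proteins 29 were higher in both tissues and 5 had a lower interaction, against the same 6.09% and 1.69%, with medians of 0.25 and 0.42. *Mrps21* was 9.96, 9.68, 9.74 and 9.58 in WT and 10.36, 10.01, 10.66 and 10.29 in KO hippocampus, and 10.19, 9.75 and 10.09 in WT and 11.20, 11.03, 11.23 and 11.19 in KO cerebellum. Both differences passed without overlap, 0.59 and 1.15, and the interaction of -0.56 did not (adjusted p = 0.0632). *Mrpl13* rose by 0.44 and 0.64. *Mrpl52* (-0.86), *Mrpl33* (-0.60) and *Mrpl22* (-0.55) had the largest interactions of the list, and the other probe of *Mrpl33*, at -0.42, did not pass.

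The counts of lower interactions in these lists grew after quantile normalization, from 5 to 9 in complex I, from 2 to 8 in complexes II to IV and ATP synthase and from 7 to 19 in cytosolic ribosomal proteins, and stood at 8, 7 and 16 after neqc. With the mean choroid plexus marker level as a covariate, no member of these 4 lists passed in hippocampus. In cerebellum 29, 25, 41 and 44 still rose, and 9, 7, 14 and 9 had a lower interaction. The hippocampal medians of the 4 lists stayed above 0 in that fit. They were 0.26, 0.16, 0.17 and 0.21, against 0.34, 0.27, 0.26 and 0.25 without the covariate. The covariate itself differed by genotype, so a lost call there does not show that the difference was lost.

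**Figure D4:**
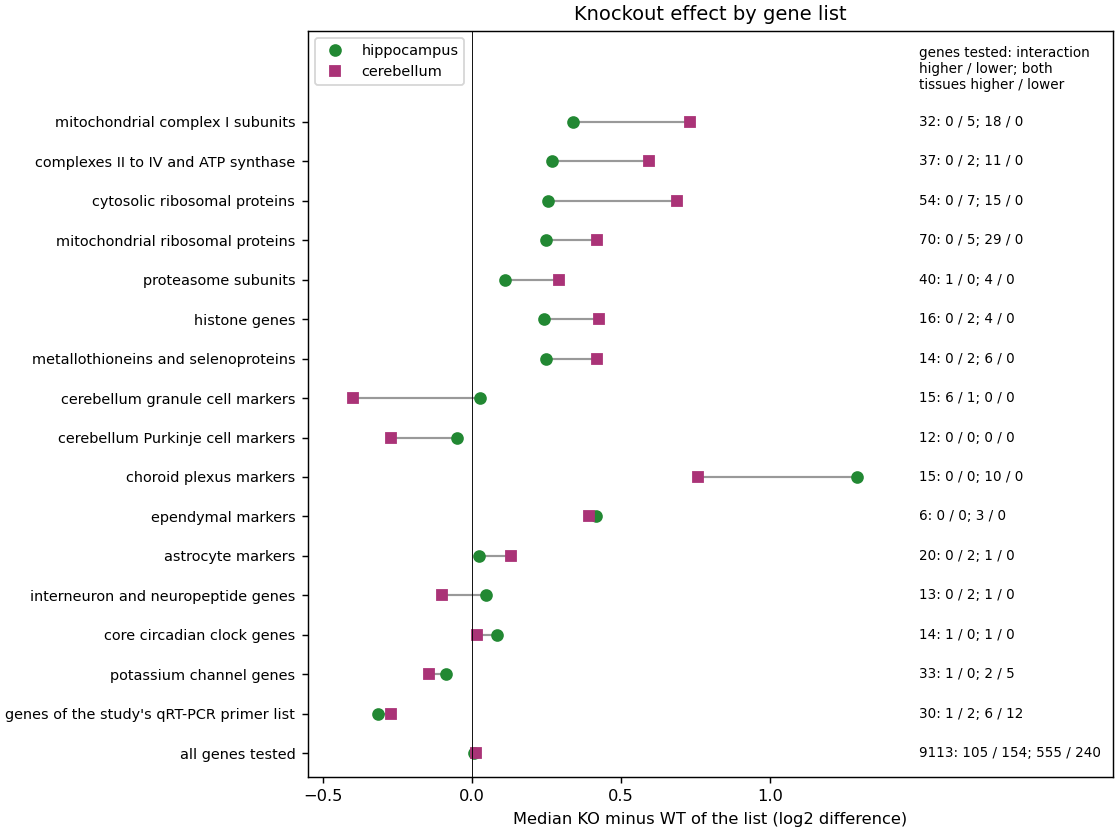
Median KO minus WT (log2 difference) of 16 gene lists and of all 9113 genes tested, in hippocampus (circles) and in cerebellum (squares), joined by a line, with the number of genes tested and of calls at the right. The lists of respiratory and ribosomal genes lie above 0 in both tissues and farther in cerebellum, the granule cell markers lie at 0.03 in hippocampus and -0.40 in cerebellum, and the choroid plexus markers lie farther from 0 in hippocampus.

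Histone genes had a median difference of 0.24 in hippocampus and 0.43 in cerebellum. Of 16 tested, 4 rose in both tissues and 2 had a lower interaction, against 6.09% and 1.69% of all genes. These 2 were *H4c8* (-0.71, adjusted p = 0.018) and *H2bc4* (-0.62, adjusted p = 0.0217). *H1f2*, a linker histone, rose by 0.52 in hippocampus and 0.43 in cerebellum, with no called interaction. *Hspe1*, the mitochondrial co-chaperone of Hsp60, had an interaction of -0.70 (limma, adjusted p = 0.0127). It was the 1 of 36 heat shock and chaperone genes with an interaction, against 2.84% of all genes. In cerebellum 5 of the list were higher and 15 lower, against 21% and 18.5% of all genes. *Jund*, a subunit of the AP-1 factor, had an interaction of -0.70 (limma, adjusted p = 0.0172). It was the 1 of 24 activity-regulated genes with an interaction, against the same 2.84%. *Gsk3a*, a kinase of insulin signalling, had one of -0.67 (adjusted p = 0.0127), and *Lmo4*, a LIM-domain factor of cortical neurons, one of -0.52 (adjusted p = 0.017). Among 40 proteasome genes 1 had an interaction, against 2.84% of all genes. It was *Psme4*, which encodes the activator PA200, at 0.46 (limma, adjusted p = 0.0377), and its other probe, at 0.12, did not pass.

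Among 20 astrocyte markers, *Gfap* and *S100b* had an interaction, against 2.84% of all genes, and the median of the list was near 0, at -0.05. *Gfap*, the intermediate filament of astrocytes, was 8.77, 8.78 and 8.62 in WT and 9.49, 9.46, 9.50 and 9.28 in KO cerebellum. In hippocampus it was 9.93, 9.73, 9.93 and 9.67 in WT and 9.82, 9.80, 9.53 and 9.60 in KO. It was higher in every KO cerebellum and overlapped between the hippocampal groups, for an interaction of -0.83 (standard error 0.14, adjusted p = 0.00274). *S100b*, a calcium-binding protein of astrocytes, rose by 0.94 in cerebellum with an interaction of -0.71 (adjusted p = 0.0244). The mean level of the 20 markers was 11.20 to 11.22 in WT and 11.30 to 11.42 in KO cerebellum, without overlap, while their linear sums, which the brightest genes dominate, were 111600 to 127000 and 108500 to 131000 and overlapped. In hippocampus the mean levels overlapped, at 10.9973 to 11.02 in WT and 10.99 to 11.07 in KO.

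Many changes were shared. Of the 1036 genes that passed in hippocampus, 795 (76.7%) also passed in cerebellum in the same direction, which is 22.1% of the 3597 that passed there. Of the 795, 555 were higher (6.09% of the genes tested) and 240 lower (2.63%), and 748 had no called interaction. The difference was larger in cerebellum in 667 of them and in hippocampus in 128. The median of the 555 was 0.39 in hippocampus and 0.61 in cerebellum, and that of the 240 was -0.33 and -0.45. The tissues came from the same mice, so the second tissue is no replicate of the first in other animals. The shared counts rested on few hippocampi: they were 191 higher and 60 lower without KO hippocampus replicate 3, 232 and 93 without WT hippocampus replicate 4, and 151 lower without WT hippocampus replicate 3. They were 149 and 45 without KO mouse 3, 264 and 89 without WT mouse 4, and 125 lower without WT mouse 3. With the mean choroid plexus marker level as a covariate, 4 higher and 5 lower genes remained in both tissues. *Bhlhe40*, *Ide*, *Erdr1* and *Chl1* still passed in hippocampus in that fit, at -3.62, -1.05, -2.27 and 1.11. The marker level itself differed by genotype, and its part in the shared changes was not tested.

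*Ide* was lower in both tissues by nearly the same amount. It encodes the insulin-degrading enzyme, which cleaves insulin and amyloid beta. Its level was 10.31, 10.16, 10.07 and 10.09 in WT and 9.15, 9.17, 8.91 and 9.0045 in KO hippocampus, and 10.60, 10.79 and 10.50 in WT and 9.66, 9.67, 9.72 and 9.44 in KO cerebellum. It was lower in every KO array of both tissues, with a difference of -1.10 in hippocampus (adjusted p = 8.73e-08) and of -1.01 in cerebellum (adjusted p = 2.59e-07), and the interaction was -0.09 (standard error 0.14, adjusted p = 0.779). The call held in both tissues in all 36 settings. *Erdr1*, a gene at the end of the X chromosome named after its values had been seen, also fell in both tissues, with differences of -1.89 and -1.94. *Igf2* rose by 0.79 and 0.73, and *Igfbp2*, which binds the growth factors, by 1.13 and 1.34. *Igfbp2* was 8.44, 9.06, 9.54 and 8.59 in WT and 9.99, 9.80, 10.97 and 9.42 in KO hippocampus, which overlapped, and 9.07, 8.78 and 8.18 in WT and 10.20, 9.74, 10.22 and 9.91 in KO cerebellum, which did not. *Igf2* and *Igfbp2* are also made in the meninges and were counted in that list, and their hippocampal values with the choroid plexus covariate, 0.26 and 0.21, did not pass.

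**Figure D5:**
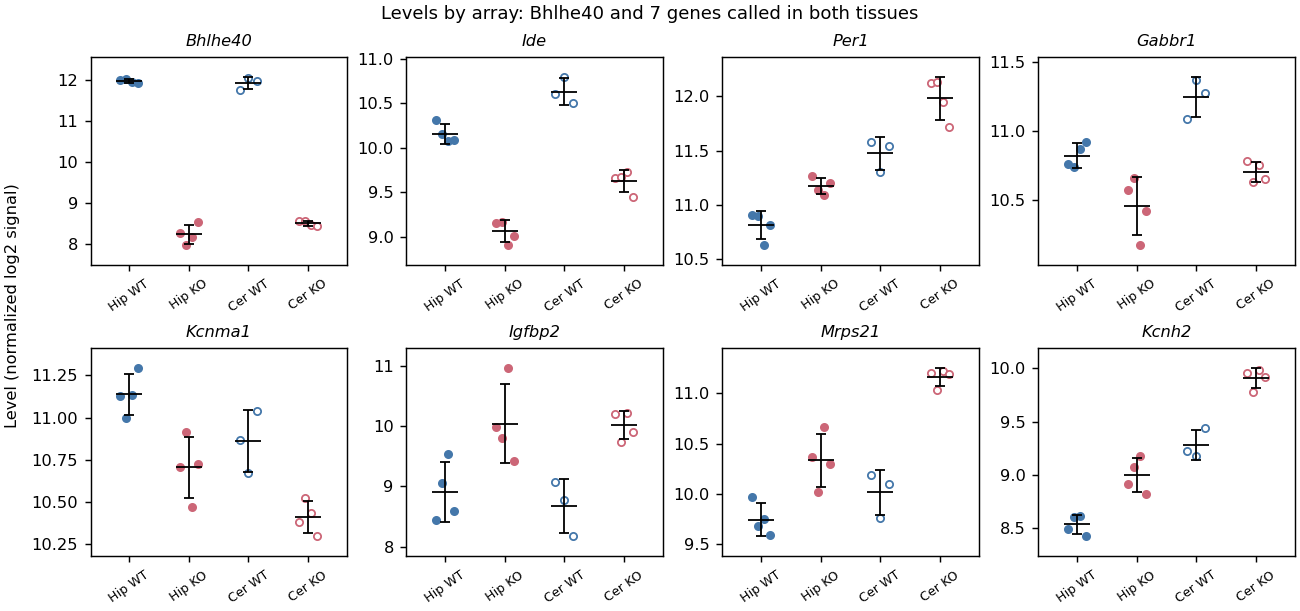
Levels (normalized log2 signal) of *Bhlhe40* and of 7 genes that passed in both tissues in 1 direction, with 1 point for each array of WT and KO hippocampus (Hip, filled) and cerebellum (Cer, open), and bars at the mean with its SD. *Bhlhe40*, *Ide*, *Gabbr1* and *Kcnma1* are lower and *Per1*, *Igfbp2*, *Mrps21* and *Kcnh2* higher in KO in both tissues, with overlap of the groups only in hippocampal *Igfbp2*.

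*Chl1* was shared and also differed between the tissues. It encodes a cell adhesion molecule of the L1 family, and was 10.33, 9.85, 9.95 and 9.97 in WT and 11.10, 11.15, 10.97 and 11.16 in KO hippocampus, and 9.33, 9.36 and 9.29 in WT and 11.23, 11.23, 11.18 and 11.07 in KO cerebellum. The WT cerebella were lower than the WT hippocampi, and the KO arrays of both tissues lay within 10.97 to 11.23. It rose by 1.07 in hippocampus and 1.85 in cerebellum, with an interaction of -0.78 (standard error 0.13, adjusted p = 0.00274). *Chl1* lies on chromosome 6, as *Bhlhe40* does, 6 places from it in the RefSeq order of the genes tested. *Cntn4*, named after its values had been seen, encodes a contactin. It lies between them, 4 places from *Bhlhe40*, and fell by 0.61 in cerebellum, with an interaction of 0.41 (adjusted p = 0.0208). Of the other 18 genes within 10 places of *Bhlhe40* none had an interaction. Over chromosome 6, 2.97% of 471 genes had an interaction and 10.8% were shared, against 2.84% and 8.72% of all genes.

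Choroid plexus markers rose in both tissues. No interaction among them passed in limma, 2 had an unadjusted p under 0.05, and none passed after quantile normalization or neqc. This tissue lies within the ventricles next to both structures and secretes the cerebrospinal fluid. Of the 15 markers tested, 14 were higher in hippocampus, 11 in cerebellum and 10 in both, against 7.15%, 21% and 6.09% of all genes, with medians of 1.29 and 0.76. The linear sum over the markers was 4861 to 55920 in WT and 32780 to 71230 in KO hippocampus, and 22820 to 37800 in WT and 44530 to 67760 in KO cerebellum. It thus overlapped between the hippocampal groups and did not between the cerebellar. *Ecrg4* was 8.34, 7.62, 9.48 and 7.59 in WT and 10.33, 9.68, 11.59 and 9.18 in KO hippocampus, and its differences were 1.94 and 2.01. *Sostdc1*, a secreted antagonist of BMP and Wnt, had differences of 1.74 and 1.63, and *Folr1*, the folate receptor, of 1.44 and 1.21. WT replicate 3 was the highest WT hippocampus for all 3 of these genes, and KO replicate 3 the highest KO hippocampus. *Dynlrb2*, a dynein light chain of ciliated cells, rose by 0.69 in hippocampus and 1.13 in cerebellum, and was 1 of 3 ependymal markers of 6 that rose in both. The endothelial marker *Ly6c1* rose by 0.35 and 0.60, with 3 of 18 endothelial markers higher in both, beside the 6.09% of all genes. Of 21 oligodendrocyte genes 3 were higher in both, among them *Cryab*, a small heat shock protein (0.59 and 0.75), and *Opalin*, a myelin membrane protein (0.45 and 0.49). The galectin-3 binding protein *Lgals3bp* rose by 0.56 and 0.55. With the choroid plexus covariate none of these genes passed in hippocampus. *Ecrg4*, *Sostdc1* and *Folr1* are among the markers averaged in that covariate, so for them this outcome was largely fixed in advance and tests nothing. The hippocampal differences of *Ly6c1* and *Cryab* in that fit, 0.39 and 0.49, were near those without it, though they no longer passed. Those of *Dynlrb2*, *Opalin* and *Lgals3bp* were smaller than without it, at 0.26, 0.20 and 0.26.

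Clock genes shared a rise of *Per1* and of the clock output factor *Dbp*, and differed in *Clock*. *Per1*, a repressor in the clock feedback loop, was 10.90, 10.90, 10.63 and 10.81 in WT and 11.27, 11.13, 11.09 and 11.20 in KO hippocampus, and 11.58, 11.30 and 11.55 in WT and 12.13, 12.13, 11.95 and 11.72 in KO cerebellum. The groups did not overlap in either tissue, with differences of 0.36 (adjusted p = 0.0155) and 0.51 (adjusted p = 0.000333) and an interaction of -0.15 (adjusted p = 0.584). *Dbp* rose by 0.27 and 0.35, and its hippocampal call held in 18 of 36 alternative settings. *Clock* itself, the activator of the loop, was 11.31, 11.47 and 11.41 in WT and 10.86, 10.82, 10.79 and 10.56 in KO cerebellum, and 10.9979, 10.85, 10.95 and 10.78 in WT and 10.79, 10.66, 10.71 and 10.96 in KO hippocampus. It fell in every KO cerebellum and overlapped in hippocampus, with an interaction of 0.52 (adjusted p = 0.0217). Another probe of *Clock* had differences of -0.41 and -0.35, which both passed, and an interaction of -0.07, which did not. *Clock* was the 1 of 14 clock genes with an interaction, against 2.84% of all genes. Among Id and Hes factors, *Id1*, an inhibitor of helix-loop-helix factors, rose by 0.50 and 0.73. *Gadd45g*, a stress-response gene, rose by 0.46 and 0.57. All tissue was taken between 10:30 am and 1 pm, so that a single stretch of the clock cycle was sampled.

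Of 33 potassium channel genes 2 were higher and 5 lower in both tissues, against 6.09% and 2.63% of all genes, and 1 had an interaction, against 2.84%. *Kcnma1*, the BK channel, was 11.13, 10.9974, 11.14 and 11.29 in WT and 10.71, 10.91, 10.47 and 10.72 in KO hippocampus, and 10.87, 10.67 and 11.04 in WT and 10.38, 10.52, 10.43 and 10.30 in KO cerebellum. It was lower in every KO array than in every WT array of its tissue, with differences of -0.43 and -0.45 and an interaction of 0.01 (standard error 0.14). *Kcnd2*, an A-type channel, fell by 0.57 in hippocampus and fell by 0.46 in cerebellum, where its groups overlapped. *Kcnh2*, the ERG channel, rose by 0.46 and 0.63, and its other probe, at 0.16 and 0.30, passed in cerebellum only. *Kcnc1*, a channel of fast-spiking neurons, fell by 0.79 in cerebellum and had an interaction of 0.54 (adjusted p = 0.0217), and its other probe, at -0.09, did not pass. *Gabbr1*, a subunit of the GABA-B receptor, was 10.76, 10.73, 10.87 and 10.92 in WT and 10.57, 10.65, 10.17 and 10.41 in KO hippocampus, and 11.09, 11.37 and 11.27 in WT and 10.78, 10.63, 10.75 and 10.65 in KO cerebellum. It fell by 0.37 and fell by 0.54, and *Kctd12*, an auxiliary subunit of that receptor, fell by 0.36 and fell by 0.63, without a called interaction in either. *Gria1*, a subunit of AMPA receptors, fell by 0.44 and fell by 0.36. Its other probes passed in hippocampus, at -0.37 and -0.43, and did not pass in cerebellum, at -0.19 and -0.23. *Cacna2d1*, an auxiliary subunit of calcium channels, fell by 0.82 and fell by 0.67. *Gabarap* and *Map1lc3a*, of the ubiquitin-like family that marks autophagosomes, rose by 0.47 and 0.54 in hippocampus and by 0.98 and 0.93 in cerebellum. Another probe of *Map1lc3a*, at 0.31 in hippocampus and 0.64 in cerebellum, passed in cerebellum only.

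Of 30 tested genes with a primer pair in the study's qRT-PCR list, 12 were lower and 6 higher in both tissues, against 2.63% and 6.09% of all genes. *Clock*, *Chl1* and *Camk1d* had an interaction, against 2.84%. The study chose many of these genes for their change on the hippocampal arrays used here and some for other reasons, so that the hippocampal counts are no independent evidence of their direction, and the cerebella came from the same mice. The study's qRT-PCR used the opposite hippocampus of the array mice and further mice. It reported *Clock*, *Camk1d*, *Gria1* and *Gabbr1* as higher in KO, where their hippocampal array difference was below 0. It reported *Ide* as lower and *Chl1*, *Dbp* and *Kcnh2* as higher, the directions found here. For *Kctd12*, lower on the arrays, the study reported more protein in KO hippocampus.

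The direction of the called interactions varied with gene length. Among the 2278 shortest genes, with a median of 5029 bases from start to end, 9 had a higher and 75 a lower interaction. Among the 2278 longest genes, with a median of 103000.5 bases, 50 had a higher and 24 a lower. Between these lay 2277 genes with a median of 15158 bases, of which 15 had a higher and 32 a lower interaction. A further 2277 had a median of 33615 bases, with 30 higher and 23 lower. Of all genes, 1.15% had a higher and 1.69% a lower interaction. The Spearman correlation with gene length over 9110 genes was 0.19 for the interaction, -0.37 for the hippocampal and -0.34 for the cerebellar difference. These correlations are across genes, which are not independent replicates, and all 3 share the same arrays. In both tissues the shortest genes had the higher median difference, 0.11 in hippocampus and 0.16 in cerebellum, against -0.06 and -0.08 in the longest.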

How the data were processed

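Total RNA of 15 tissue samples had been hybridized to Illumina mouse BeadChips, and the authors exported signals with GenomeStudio 2011.1. The deposited intensity of each probe is its bead signal without background subtraction, the deposited detection p-value compares it with negative control beads, and the deposited score is the authors' Z normalization of log2 signal within each array. Of 25697 probes, 23978 carried 1 gene symbol. The array number limits the precision.

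Log2 signals were Z-normalized per array and rescaled by 1.5874, the mean of the SDs over arrays, which differs from the deposited scores by at most 9.96e-05 before scaling. The mean log2 signal (8.4849) was added back to give the levels printed. A probe was kept at a detection p under 0.05 in at least 3 arrays of each tissue, and the probe with the highest mean signal stood for a gene (9113 genes from 12460 probes). limma 3.58.1 in R 4.3.3 fitted the 4 groups of tissue and genotype with the mouse as a random block (consensus correlation 0.0459), a mean-variance trend and Benjamini-Hochberg adjustment over all genes, and a call is an adjusted p under 0.05. Separate mice are the replicates. The animal codes in the labels pair the tissues: deviations from the group mean correlated at -0.0693 to 0.1819 within a mouse, and 3 of 7 mice correlated best with themselves. The labels pair no WT mouse with a KO mouse.

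The members and the 47 gene lists were chosen with earlier results of these data known. Genes named are *Bhlhe40*, the 12 largest interactions in each direction, up to 3 members of each list by interaction and up to 3 by shared change, and others said to be chosen after their values were seen. Alternatives were neqc, quantile normalization, the deposited scores, other filters, probe averaging, other blocks, all 23 arrays, other variance settings, a choroid plexus covariate, the study's FDR of 0.3, and leaving out each array or mouse. The fit was checked on simulated data. The other 8 arrays of the series were used only in the fit of all 23 arrays.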

Additional observations from a re-analysis of the deposited data

Results flagged for a closer look

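An effect of the knockout that differed between hippocampus and cerebellum, by the interaction test in limma, was found for 105 genes in the higher and for 154 in the lower direction. Among the genes named in the report with a positive interaction, it was 1.3 for *Sulf1*, 0.85 for *Vat1l*, 0.82 for *Stag1*, 0.81 for *Tmem266*, 0.81 for *Cbln1*, 0.77 for *Shf*, 0.76 for *Frmd6*, 0.74 for *Aqr*, 0.73 for *Spry3*, 0.72 for *Tmem30a* and 0.70 for *Mindy1*. It was also 0.69 for *Gdpd5*, 0.62 for *Chn2*, 0.51 for *En2*, 0.46 for *Tiam1*, 0.45 for *Gabrd*, 0.46 for *Rims3*, 0.52 for *Clock*, 0.54 for *Kcnc1*, 0.46 for *Psme4*, 0.51 for *Ninl* and 0.55 for *Atp2a3*. The positive values further included 0.57 for *Ephx1*, 0.51 for *Tuft1* and 0.41 for *Cntn4*.

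Among those with a negative interaction, it was -1.49 for *Sst*, -1.19 for *Mt3*, -1.14 for *Meis2*, -1.05 for *Cbln4*, -1.02 for *Tmsb10*, -0.99 for *Dlk1*, -0.95 for *Selenow*, -0.95 for *Resp18*, -0.91 for *Brsk1*, -0.89 for *Mtss2* and -0.89 for *Calr*. Values between these and 0 were -0.89 for *Cox6c*, -0.70 for *Slc17a7*, -0.71 for *Ndufa1*, -0.69 for *Ndufb3*, -0.65 for *Ndufa12*, -0.68 for *Uqcr11*, -0.70 for *Rps27l*, -0.68 for *Rps26*, -0.68 for *Rps27*, -0.86 for *Mrpl52* and -0.60 for *Mrpl33*. The interaction was also -0.55 for *Mrpl22*, -0.83 for *Gfap*, -0.71 for *S100b*, -0.78 for *Chl1*, -0.60 for *Npy*, -0.52 for *Camk1d*, -0.71 for *H4c8*, -0.62 for *H2bc4*, -0.70 for *Hspe1*, -0.70 for *Jund* and -0.67 for *Gsk3a*. The negative values further included -0.52 for *Lmo4*, -0.57 for *Rapgef5*, -0.54 for *Pa2g4*, -0.47 for *Mdga2*, -0.42 for *Tnfrsf21* and -0.49 for *Ch25h*.

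A single array stood apart from the others of its group in 14 of 294 groups of 4 arrays tested over the 98 genes named, which is 4.76%, where chance alone marks about 1 group in 20. The WT cerebella, of which there were 3, were not tested. In WT hippocampus the arrays were replicate 1 for *Mrpl33* (10.87) and *Rapgef5* (11.64), replicate 2 for *Aqr* (9.01) and *Ch25h* (8.30), replicate 3 for *Meis2* (10.44) and *Uqcr11* (12.13), and replicate 4 for *Selenow* (12.08). In KO hippocampus it was replicate 2 for *Shf* (9.93). In KO cerebellum they were replicate 2 for *Igf2* (12.95), replicate 3 for *Mdga2* (9.94) and *H1f2* (11.66), and replicate 4 for *Tmem30a* (11.39), *Tiam1* (12.77) and *Gfap* (9.28). No array accounted for more than 3 of the 14.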

How the results depend on the processing

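All 259 genes with an interaction kept its direction under every alternative in which they were measured. This was fixed in advance where only the variance or the threshold changed. Elsewhere most or all of the arrays on which the genes had been called were used again. The counts moved more. Beside the 105 higher and 154 lower interactions, there were 56 higher with no detection filter, 69 with probes of a gene averaged, 60 with all 23 arrays in the fit, 18 higher and 27 lower with no moderation of the variance, 176 and 246 with the choroid plexus covariate, and 815 and 934 at an unadjusted p under 0.05 with an FDR under 0.3. In total 307 genes passed after neqc (220 of them among the 259) and 339 after quantile normalization (238 among them). For the pairing of tissues within mice, 8 higher and 53 lower interactions passed with the animal code as a fixed replicate block, 229 in total with the number in the titles as the block and 211 without a block.

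In hippocampus 199 higher and 154 lower genes passed without moderation, 4 and 6 with the choroid plexus covariate, and 1467 and 1108 at the FDR under 0.3, and in cerebellum 1088 lower genes passed with the covariate. Genes that passed in both tissues numbered 174 higher and 98 lower without moderation, 4 and 5 with the covariate, 1135 and 738 at the FDR under 0.3, and 141 lower with no detection filter. Those that passed in opposite directions numbered 1 after neqc, after quantile normalization and with averaged probes, 4 with a detection p under 0.01 in every array, 18 at the FDR under 0.3, and 0 with no filter, with 23 arrays and with the covariate. With the covariate the hippocampal difference of *Folr1*, itself 1 of the markers averaged in the covariate, was -0.016, the 1 value that changed sign. The causes of these shifts were not tested, except that the fixed block uses 7 mice.

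Leaving out single arrays, the interactions ranged from 18 to 254 higher and 37 to 299 lower, the hippocampal calls from 216 to 733 and 94 to 494, the cerebellar from 1438 to 2093 and 1203 to 1720, the shared from 191 to 634 and 60 to 347, and the opposite from 0 to 4. Leaving out single mice, the same counts were 4 to 133 and 19 to 229, 170 to 673 and 77 to 346, 1415 to 2058 and 1172 to 1692, 149 to 561 and 45 to 266, and 0 to 2. With 3 or 4 arrays a group, and signals that include background, small differences of dim genes could not be detected.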
